A study of Mus musculus with 76 samples.

Results

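The 9 genes described here are known for their expression in the habenula, the part of the dorsal diencephalon that sends its output to the interpeduncular nucleus and the midbrain. They were chosen by name as habenular transcription factors (Pou4f1 and Nr4a2), neuropeptide precursors (Tac1 and Tac2), a receptor (Gpr151) and nicotinic acetylcholine receptor subunits (Chrna3, Chrna5, Chrnb3 and Chrnb4), and they are 9 of the 56923 genes in the count files. All 9 were matched in the files. The rule names them without using a measured value, but it was set with earlier results of these data known.

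The samples were whole diencephalon from C57BL/6J mouse embryos at the embryonic stages E11.5 or E17.5. Humanized embryos were homozygous for a human sequence in place of the mouse hs754 locus on chromosome 13, and wild type embryos carried the mouse sequence. The RNA-seq set comprised 4 replicates of each genotype at each stage. One litter gave each replicate, as a pool of 6 embryos for the earlier stage or 3 for the later. ChIP-seq peak lists covered H3K27ac, H3K4me3 and H3K27me3 with 2 replicates of each genotype for E11.5 and 3 for E17.5, and the insulator protein CTCF with 3 per genotype at E17.5 only. The habenula was not dissected apart, so every value is an average over the whole diencephalon, and in such tissue fewer cells of a type and less RNA per cell cannot be told apart.

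Most medial habenular neurons release glutamate together with acetylcholine or a tachykinin, and they carry nicotinic receptors built around the products of Chrna3, Chrnb4 and Chrna5. Nicotinic receptors are pentameric cation channels in which alpha and beta subunits together form the site that binds acetylcholine, while Chrna5 joins as an accessory subunit. Pou4f1 is a POU-homeodomain factor required for the differentiation of habenular neurons and also of sensory ganglia and several midbrain nuclei, so none of these genes is limited to the habenula. Chrna5, Chrna3 and Chrnb4 lie next to one another in the genome, in human and in mouse.

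The RNA libraries held 16414369 to 24272569 reads counted on genes. Reads assigned to no gene made up 48.1% to 58.4% of all reads of a library, and unmapped reads alone made up 36.3% to 44.9%. Summed counts per 1000000 reads (CPM) of the thalamus markers were 731 to 1684 in all 16 samples, the highest sum of the neural regions examined. Tcf7l2 led it, with group means of 888 to 1269 CPM. Lhx9 was at 75.6 to 275 CPM and Gbx2 at 12.8 to 32.8 CPM, so the sum does not rank the regions. Between E11.5 and E17.5 the summed marker level of the choroid plexus went from 11.0–27.9 to 103–508 CPM, that of the telencephalon from 1.44–3.02 to 48.2–82.8 CPM, that of erythroid cells from 90.5–314 to 234–985 CPM, and that of the meninges from 390–551 down to 98.7–187 CPM. The lists were mixed. In wild type Ttr led the choroid plexus (mean 0.395 to 225 CPM) and Hbb-bs the erythroid cells (10.7 to 356 CPM). In humanized samples 2 choroid plexus markers and 1 erythroid marker were called higher. Folr1 (log2 −0.96), Hba-a1 (−1.61) and Alas2 (−1.73) were called lower there. In both genotypes 3 telencephalon markers were called higher and Emx1 lower, and 3 meningeal markers were called lower and Dcn higher. E17.5 wild type replicate 1 stood apart from the other samples of its group, and the number of genes called between stages in wild type went from 5393 higher and 4963 lower to 6968 higher and 7026 lower without it. The part of these differences between samples in the results below was not tested.

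Between E11.5 and E17.5, Gpr151, Tac1, Chrna3 and Chrnb3 rose and Pou4f1 and Chrna5 fell, in both genotypes. Nr4a2 rose in humanized samples and did not pass the test in wild type, and Chrnb4 passed in neither genotype. Of the 8 genes that passed the filter on low counts in wild type, 4 were called higher and 2 lower by edgeR's quasi-likelihood test at a Benjamini-Hochberg adjusted p of 0.05, against a background of 29.0% of 18583 genes higher and 26.7% lower. In humanized samples 5 of 8 were called higher and 2 lower, against 38.2% and 39.5% of 18781 genes. The median log2 difference of the tested members was 0.58 in wild type and 0.71 in humanized samples, and that of all tested genes was −0.01 and −0.04. At such backgrounds a call alone did not set these genes apart, and the size of each difference is given below.

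Pou4f1 (ENSMUSG00000048349, chromosome 14, 104699112 to 104705504, minus strand, in GRCm39, the same build as mm39) was among the highest of the 9 genes at E11.5. Its level was 40.5, 38.8, 65.8 and 45.5 CPM in the 4 wild type samples at E11.5 and 34.7, 57.8, 40.0 and 59.7 CPM in the humanized samples. At E17.5 it was 23.4, 29.7, 29.8 and 25.7 CPM in wild type and 30.1, 33.9, 25.7 and 31.5 CPM in humanized samples. Every E17.5 sample lay below every E11.5 sample of its genotype. Pou4f1 fell by 0.83 ± 0.21 (SE) on the log2 scale in wild type (edgeR adjusted p = 0.00741) and by 0.68 ± 0.18 in humanized samples (edgeR adjusted p = 0.00487). The spread at E11.5 was wide, with an SD of 12.4 CPM around a mean of 47.6 CPM in wild type, against 3.14 CPM around 27.1 CPM at E17.5. Sensory ganglion markers, which label another site of Pou4f1 expression, summed to 18.3–22.8 CPM in E11.5 samples and 6.41–11.1 CPM at E17.5. Of these 5 markers 3 were tested, and 2 fell in both genotypes. Prdm12, which is also expressed within the central nervous system, fell by 1.63 ± 0.20 on the log2 scale in wild type and by 1.56 ± 0.15 in humanized samples (edgeR adjusted p = 7.28e-05 and 1.20e-06), and P2rx3, an ATP-gated channel of sensory neurons, fell by 1.38 ± 0.29 and by 0.77 ± 0.33 (edgeR adjusted p = 0.00203 and 0.0493). Avil was at 0.47 ± 0.46 in wild type and rose by 1.26 ± 0.29 in humanized samples (edgeR adjusted p = 0.411 and 0.00161), and Scn10a, which was not tested, had means of 0.0122 to 0.0937 CPM. The part of ganglion tissue in the fall of Pou4f1 was not tested.

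Nr4a2 (ENSMUSG00000026826, chromosome 2, 56996842 to 57014331, minus strand) encodes an orphan nuclear receptor that also specifies midbrain dopamine neurons. In wild type it was 74.8, 51.6, 71.8 and 66.9 CPM at E11.5 and 39.9, 72.9, 71.3 and 76.3 CPM at E17.5. In humanized samples it was 44.0, 55.1, 39.9 and 67.4 CPM at E11.5 and 68.5, 80.3, 77.1 and 70.4 CPM at E17.5. Thus the stages overlapped in wild type, where replicate 1 was the low sample at E17.5, and did not overlap in humanized samples. The log2 difference was −0.04 ± 0.23 in wild type (edgeR adjusted p = 0.904) and 0.51 ± 0.16 in humanized samples (edgeR adjusted p = 0.0135). Without E11.5 humanized replicate 3 the humanized difference was 0.37 with an edgeR adjusted p of 0.0555, and without E17.5 wild type replicate 1 the wild type difference was 0.13. The difference between the 2 genotypes in the stage effect was 0.55 ± 0.29 and did not pass (edgeR interaction term, adjusted p = 0.462). The summed level of midbrain and dopamine neuron markers lay in the range 63.9–83.3 CPM in E11.5 samples and 35.8–50.7 CPM in E17.5 samples, and the list was split. Of the 4 markers tested, 1 was called higher and 1 lower in each genotype. Foxa1 went from a mean of 66.1 to 19.5 CPM in wild type, and Slc6a3, the dopamine transporter, from 0.157 to 14.5 CPM. En1 and Th did not pass in either genotype. The part of these markers in the level of Nr4a2 was not tested.

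Tac1 (ENSMUSG00000061762, chromosome 6, 7554120 to 7565834, plus strand) encodes the precursor of substance P and neurokinin A. It was 5.64, 5.04, 5.51 and 4.87 CPM at E11.5 and 13.5, 19.3, 32.1 and 28.2 CPM at E17.5 in wild type. In humanized samples it was 4.04, 5.87, 4.24 and 4.96 CPM at E11.5 and 20.8, 22.0, 25.2 and 26.8 CPM at E17.5. The stages did not overlap in either genotype, and the ratio of means was 4.43 in wild type and 4.96 in humanized samples. Tac1 rose by 2.13 ± 0.27 on the log2 scale in wild type (edgeR adjusted p = 8.17e-05) and 2.29 ± 0.16 in humanized samples (edgeR adjusted p = 7.37e-08).

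Tac2 (ENSMUSG00000025400, chromosome 10, 127560347 to 127567638, plus strand) encodes the precursor of neurokinin B and was the lowest of the 9 genes at E11.5. No read was counted in the 4 wild type samples at E11.5, and 1 read was counted in 1 of the 4 humanized samples. At E17.5 the counts were 22, 13, 19 and 8 reads in wild type and 11, 4, 7 and 9 reads in humanized samples, so the stages did not overlap. In wild type the level was at least 21.0-fold higher at E17.5, taking 3 counts over the E11.5 group as the limit that a count of 0 allows. In humanized samples the ratio was 39.1, with a 95% counting interval of 6.51 to 1592 from 31 and 1 reads, which covers counting error only. Tac2 did not pass the filter on low counts in the stage comparisons and has no test there.

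Gpr151 (ENSMUSG00000042816, chromosome 18, 42710946 to 42712717, minus strand), an orphan G protein-coupled receptor of habenular axons, showed the largest tested difference of the 9 genes in both genotypes. Its counts at E11.5 were 5, 4, 5 and 2 reads in wild type and 5, 6, 3 and 3 reads in humanized samples. At E17.5 they were 154, 78, 118 and 169 reads in wild type and 114, 90, 100 and 102 reads in humanized samples. In CPM this was 0.201 ± 0.0822 (SD, n = 4) against 6.32 ± 1.65 in wild type and 0.198 ± 0.0697 against 5.92 ± 0.469 in humanized samples. Gpr151 rose by 4.96 ± 0.38 on the log2 scale in wild type (edgeR adjusted p = 2.49e-06) and 4.85 ± 0.26 in humanized samples (edgeR adjusted p = 1.10e-08). Of the 33 reads counted at E11.5, 22 lay on the strand opposite the gene, whereas 3.55% did at E17.5. Counting reads on the gene's strand alone, the log2 difference was 6.54 in wild type and 6.25 in humanized samples.

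Chrna3 (ENSMUSG00000032303, chromosome 9, 54917395 to 54933941, minus strand), the ligand-binding alpha subunit of the habenular receptor, was counted at 318, 330, 454 and 443 reads in the wild type samples at E11.5 and 833, 735, 645 and 795 reads at E17.5. In humanized samples it was counted at 323, 414, 390 and 593 reads and then at 807, 606, 476 and 670 reads. Scaled to library size, the level went from 18.7 ± 2.94 to 37.3 ± 5.40 CPM in wild type and from 19.7 ± 3.59 to 37.3 ± 7.60 CPM in humanized samples (SD, n = 4 each), and the stages did not overlap in either genotype on this scale. Its log2 difference was 0.98 ± 0.19 in wild type (edgeR adjusted p = 0.00135) and 0.91 ± 0.18 in humanized samples (edgeR adjusted p = 0.000664).

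Chrna5 (ENSMUSG00000035594, chromosome 9, 54888164 to 54918184, plus strand), the accessory alpha subunit, went the other way from its neighbour Chrna3. It was 6.15, 7.37, 11.1 and 8.03 CPM at E11.5 and 2.51, 2.61, 2.79 and 2.78 CPM at E17.5 in wild type. In humanized samples it was 5.50, 8.70, 7.71 and 9.59 CPM at E11.5 and 4.11, 3.28, 2.699 and 2.80 CPM at E17.5, again without overlap between the stages. On the log2 scale the difference was −1.62 ± 0.23 in wild type (edgeR adjusted p = 0.000188) and −1.30 ± 0.22 in humanized samples (edgeR adjusted p = 0.000162). Both directions held under each scaling and filter tried and when only reads on the gene's own strand were counted.

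Chrnb4 (ENSMUSG00000035200, chromosome 9, 54935438 to 54956076, minus strand), the beta subunit that pairs with Chrna3, had overlapping levels at both stages. In wild type it was 3.13, 3.34, 3.44 and 3.45 CPM at E11.5 and 5.54, 2.94, 3.48 and 3.29 CPM at E17.5, and in humanized samples it was 4.14, 4.17, 5.02 and 3.32 CPM and then 3.68, 3.09, 3.60 and 4.52 CPM. The log2 difference was 0.18 ± 0.25 in wild type (edgeR adjusted p = 0.561) and −0.17 ± 0.19 in humanized samples (edgeR adjusted p = 0.428). The wild type value was −0.07 without E17.5 replicate 1, the sample at 5.54 CPM.

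Chrnb3 (ENSMUSG00000031492, chromosome 8, 27858739 to 27889758, plus strand), a beta subunit that joins receptors as an accessory, was counted at 1 to 4 reads in each E11.5 sample. At E17.5 it was counted at 59, 59, 64 and 115 reads in wild type and 74, 55, 64 and 40 reads in humanized samples. The level went from 0.146 ± 0.0441 to 3.58 ± 0.846 CPM in wild type and from 0.118 ± 0.0640 to 3.36 ± 0.595 CPM in humanized samples (SD, n = 4 each). Chrnb3 rose by 4.56 ± 0.35 on the log2 scale in wild type (edgeR adjusted p = 2.78e-06) and 4.77 ± 0.36 in humanized samples (edgeR adjusted p = 1.59e-07).

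**Figure D1:**
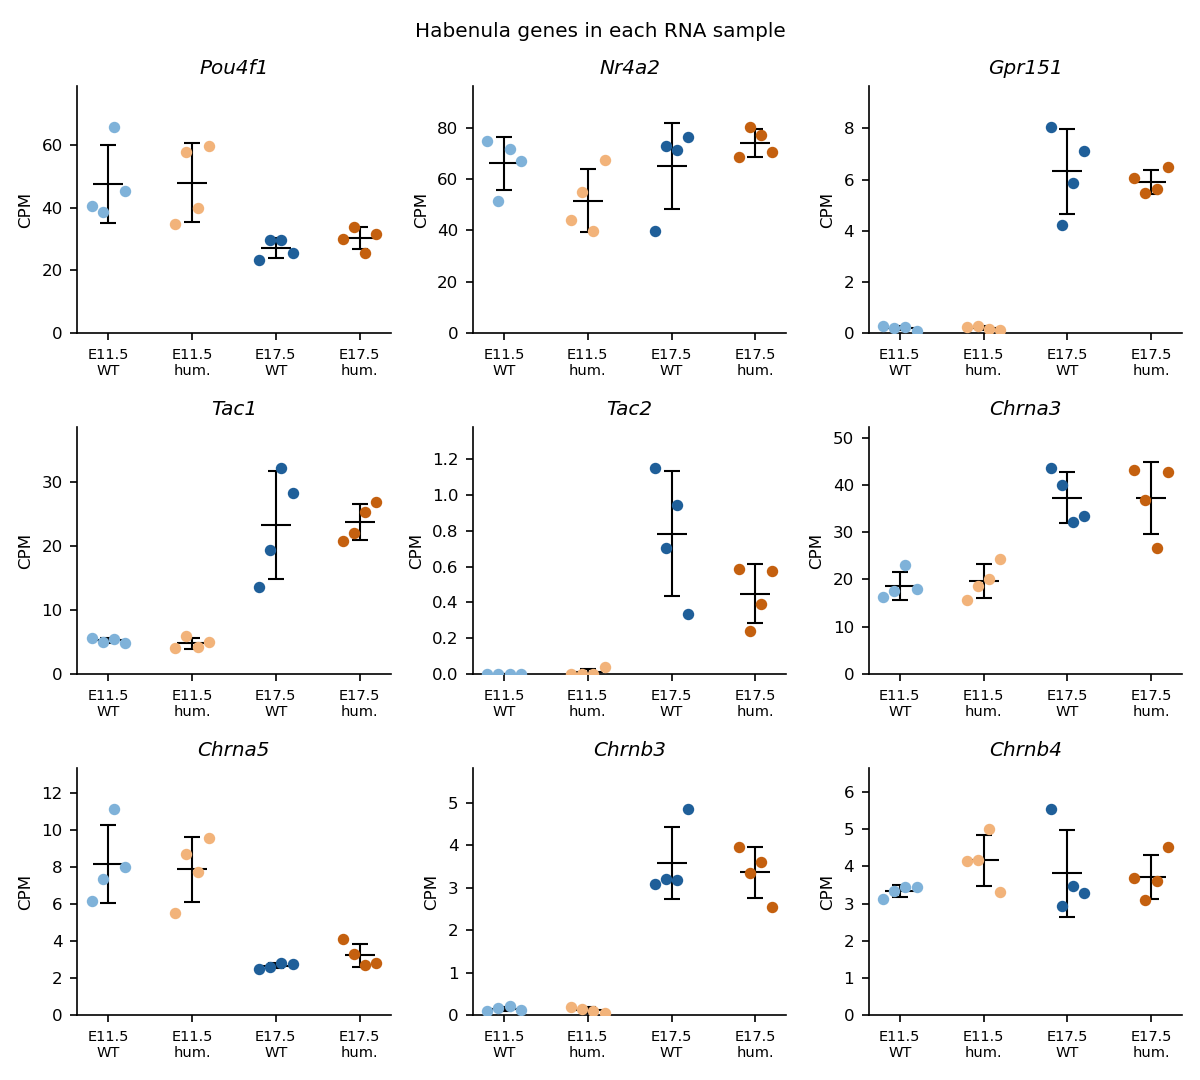
Levels of the 9 habenula genes in the 16 RNA samples, in CPM on a linear axis that starts at 0 for each gene. Points are replicates, the wide mark and bar are the mean and SD (n = 4), and WT and hum. stand for wild type and humanized. Gpr151, Tac2 and Chrnb3 sit near 0 in every E11.5 sample, Chrna5 and Pou4f1 lie lower at E17.5, and the genotypes overlap for every gene at both stages.

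Divided by the length of the canonical transcript, the levels gave an order between genes. Reads were counted over all annotated exons, which span 5360 bp at Chrna3 against 2414 bp of its canonical transcript. At Nr4a2 they span 7670 against 4764 bp, and at Pou4f1 and Chrnb4 the lengths are equal. The order therefore depends on the length used. At E11.5 in wild type the order on this scale, in CPM per kb, was Nr4a2 (13.9 ± 2.17), Pou4f1 (10.6 ± 2.76), Chrna3 (7.74 ± 1.22), Chrna5 (3.04 ± 0.787), Tac1 (2.21 ± 0.155), Chrnb4 (0.894 ± 0.0398), Gpr151 (0.113 ± 0.0464), Chrnb3 (0.0319 ± 0.00960) and Tac2 (0). The ranges of Nr4a2 and Pou4f1, of Pou4f1 and Chrna3, and of Chrna5 and Tac1 overlapped, and the other neighbours in the order did not. At E17.5 in wild type Chrna3 (15.4 ± 2.24) stood level with Nr4a2 (13.7 ± 3.55), with Tac1 (9.76 ± 3.54), Pou4f1 (6.01 ± 0.696) and Gpr151 (3.57 ± 0.931) next. Tac2, Chrnb4, Chrna5 and Chrnb3 followed between 1.10 and 0.780 CPM per kb, each overlapping its neighbour in the order.

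Within the Chrna5-Chrna3-Chrnb4 cluster the division of the length-scaled level changed between the stages. This share was computed from reads on each gene's own strand, since the ends of Chrna5 and Chrna3 overlap on opposite strands and 12.7% of the reads counted on Chrna3 at E11.5 and 13.6% of those on Chrna5 at E17.5 came from the other strand. Chrna5 held 28.3% ± 3.34 (SD, n = 4) of the cluster's level in wild type at E11.5 and 5.43% ± 1.13 at E17.5. In humanized samples it held 25.5% ± 2.83 and 5.70% ± 0.927. Chrna3 held 63.2% ± 2.65 in wild type E11.5 samples and 88.6% ± 1.66 in those at E17.5, and 64.4% ± 2.27 and 88.3% ± 1.67 in humanized samples. Chrnb4 held 8.55% ± 0.818 and then 5.94% ± 1.21 in wild type, and 10.1% ± 2.41 and then 5.98% ± 1.31 in humanized samples. These shares follow from the levels above and carry no test of their own. They rest on canonical lengths of 2414 bp for Chrna3 and 2691 bp for Chrna5. All annotated exons span 5360 and 3159 bp, so the size of each share depends on the length used.

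**Figure D2:**
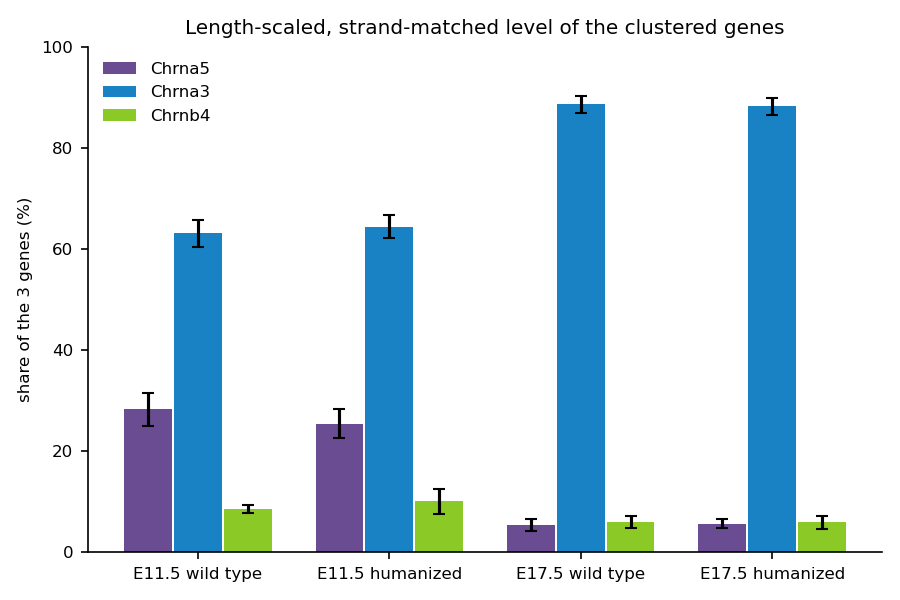
Share of each clustered subunit gene in the summed strand-matched level of Chrna5, Chrna3 and Chrnb4, scaled by canonical transcript length, in percent on an axis from 0 to 100. Bars are means and error bars SD (n = 4). Chrna5 holds 28.3% and 25.5% at E11.5 in wild type and humanized samples and 5.43% and 5.70% at E17.5.

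No member differed between the genotypes by the test. At E11.5 edgeR called 0 of the 6 members that passed the filter and 0 of 17816 genes (0.0%), with 1058 genes at an unadjusted p under 0.05, while DESeq2 called 2 genes and an edgeR fit of all 16 samples called 1, none of them a member. At E17.5 edgeR called 0 of 9 members and 0 of 18763 genes (0.0%), with 207 at an unadjusted p under 0.05, and DESeq2 called 1 gene that was no member. The interaction of genotype and stage was called for 0 of 9 members and 0 of 20234 genes (0.0%) by edgeR and by DESeq2, with 1610 at an unadjusted p under 0.05 in edgeR.

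Nr4a2 and Chrnb4 had the largest genotype differences among the members tested at E11.5. For Nr4a2 the log2 difference of humanized against wild type was −0.38 ± 0.18, with an interval of 2 SE from −0.74 to −0.02 (edgeR adjusted p = 0.578). For Chrnb4 it was 0.29 ± 0.16, with an interval from −0.03 to 0.61 (edgeR adjusted p = 0.578). At E17.5 the largest was Tac2, at −0.79 ± 0.47 with an interval from −1.74 to 0.16 (edgeR adjusted p = 0.808), from 62 reads in wild type and 31 in humanized samples. Chrna3 differed by 0.05 ± 0.16 at E11.5, with an interval from −0.27 to 0.38, and by −0.01 ± 0.20 at E17.5, with an interval from −0.41 to 0.40. For Gpr151 the E17.5 interval ran from −0.57 to 0.36, for Chrnb3 from −0.60 to 0.40 and for Tac1 from −0.50 to 0.54. Differences of these sizes were not detectable with 4 samples per group, and larger ones could also be missed. In simulated counts a planted 2-fold genotype difference was called for 65.7% of changed genes at E11.5 and 19.4% at E17.5. For a 2-fold interaction it was 8.96%.

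**Figure D3:**
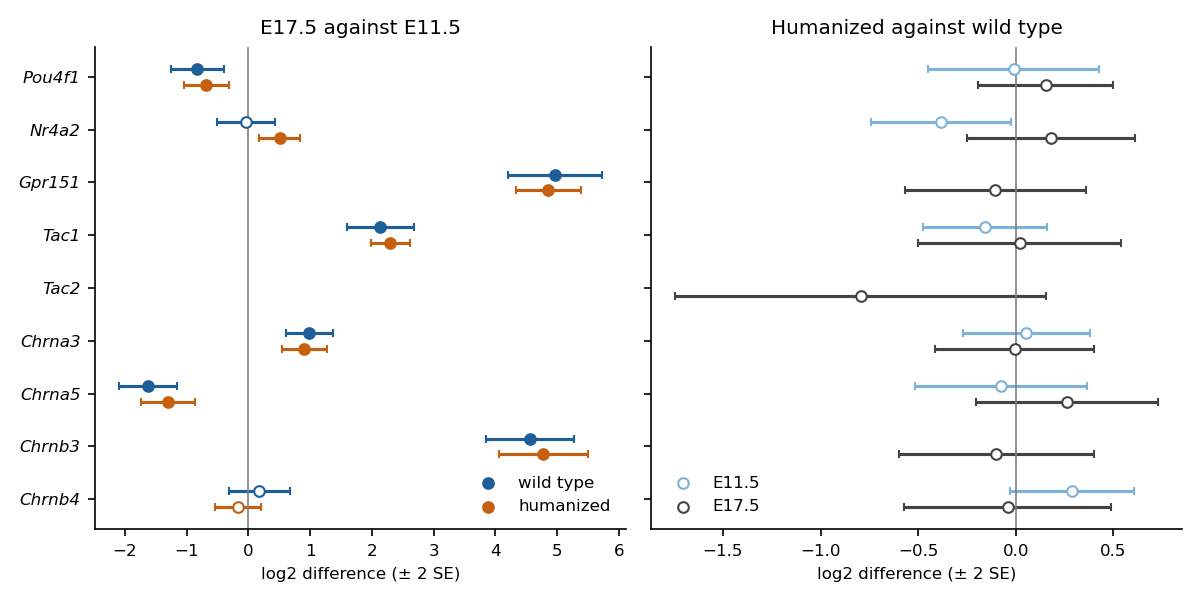
Log2 differences of the habenula genes from edgeR, with bars of 2 SE on each side, between stages within each genotype and between genotypes within each stage. Filled points had an adjusted p under 0.05 and open points did not; genes that failed the filter on low counts have no point. Gpr151 and Chrnb3 lie furthest to the right between stages, at 4.56 to 4.96, and no point is filled between genotypes.

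The rest of the nicotinic receptor family was read beside the members. Of 12 other subunit genes, 5 passed the filter in wild type, where 2 rose and none fell, and 6 in humanized samples, where 4 rose and none fell. Of all genes tested, 29.0% were called higher and 26.7% lower in wild type, and 38.2% and 39.5% in humanized samples. These shares are the background for every gene and marker list counted here, and at such shares a call alone does not set a list apart. Chrna6, an alpha subunit of dopaminergic and habenular receptors, rose by 4.74 ± 0.59 on the log2 scale in wild type and 5.72 ± 0.46 in humanized samples (edgeR adjusted p = 6.84e-05 and 2.59e-07), from a mean of 0.0938 to 2.73 CPM in wild type. Chrnb1 rose by 1.14 ± 0.31 and 1.12 ± 0.25 (edgeR adjusted p = 0.00943 and 0.00144). The subunits of the most widespread brain receptor were high at both stages and did not pass, with Chrna4 at 85.1 and 107 CPM and Chrnb2 at 75.1 and 114 CPM in wild type.

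All 6 genes of proteins that fold, traffic or modulate nicotinic receptors rose in both genotypes, against 29.0% of all genes tested in wild type and 38.2% in humanized samples. Lypd1 differed by 3.40 ± 0.29 in wild type and 3.68 ± 0.20 in humanized samples (edgeR adjusted p = 4.64e-06 and 1.38e-08), Ly6h by 3.04 ± 0.30 and 2.64 ± 0.16 (edgeR adjusted p = 1.38e-05 and 3.39e-08), Lypd6 by 1.95 ± 0.21 and 1.90 ± 0.15 (edgeR adjusted p = 2.11e-05 and 2.04e-07) and Lynx1 by 1.67 ± 0.37 and 0.91 ± 0.21 (edgeR adjusted p = 0.00294 and 0.00179). Of 4 genes for acetylcholine synthesis, transport and breakdown, 3 rose of 3 tested in wild type and 2 of 2 in humanized samples. Ache, acetylcholinesterase, rose by 3.73 ± 0.25 in wild type and 2.76 ± 0.15 in humanized samples (edgeR adjusted p = 1.22e-06 and 1.26e-08). Slc5a7, the choline transporter, rose by 2.56 ± 0.44 and 3.45 ± 0.26 (edgeR adjusted p = 0.000644 and 1.57e-07). The vesicular acetylcholine transporter gene Slc18a3 rose by 3.33 ± 0.58 in wild type (edgeR adjusted p = 0.000627) and failed the filter in humanized samples. Chat, which makes acetylcholine, reached a mean of 0.178 CPM in wild type and 0.327 CPM in humanized samples at E17.5 and was not tested.

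Of the receptors for the tachykinins, Tacr3, which binds neurokinin B, rose by 3.66 ± 0.38 in wild type and 3.89 ± 0.39 in humanized samples (edgeR adjusted p = 2.04e-05 and 1.83e-06). Tacr1, which binds substance P, rose by 1.74 ± 0.40 and 1.60 ± 0.36 (edgeR adjusted p = 0.00356 and 0.00148). Tacr2 and Tac4 stayed at or under 0.0782 CPM in every group mean. Among relatives of the transcription factors, Nr4a1 rose by 0.91 ± 0.23 in wild type and 0.87 ± 0.27 in humanized samples (edgeR adjusted p = 0.00598 and 0.0105), Nr4a3 differed by 0.44 ± 0.24 and 0.58 ± 0.18 (edgeR adjusted p = 0.139 and 0.00962), and Pou4f2 and Pou4f3 had means of 0.594 to 0.704 CPM at E11.5 and at most 0.0719 CPM at E17.5. Of 13 other genes named for the habenula, 9 rose and 3 fell in wild type and 8 rose and 3 fell in humanized samples. Over all genes tested, 29.0% rose and 26.7% fell in wild type, and 38.2% and 39.5% in humanized samples. The 4 with the largest called differences were Lrrc55 (3.60 ± 0.31 in wild type), Nwd2 (3.50 ± 0.32), Pcdh10 (3.44 ± 0.26) and Gpr139 (2.32 ± 0.20), with edgeR adjusted p of 4.89e-06, 8.02e-06, 2.31e-06 and 5.10e-06. None of these lists is limited to the habenula in the diencephalon. The pineal gland, which adjoins the habenula, was read by 4 markers that summed to 0.155–0.796 CPM in E11.5 samples and 4.40–18.2 CPM at E17.5, led by Tph1, and its part in these differences was not tested.

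Replicates of a group differed in ways some members shared. Over the 16 samples, as deviations from the mean of each stage and genotype group on the log2 CPM scale, Pou4f1 and Chrna5 correlated at r = 0.80 (0.92 among the 8 samples at E11.5 and 0.33 among the 8 at E17.5). Chrna3 and Chrna5 correlated at 0.65 (0.92 and 0.33), Nr4a2 and Tac1 at 0.70 (0.64 and 0.77), and Nr4a2 and Chrnb4 at −0.83 (−0.75 and −0.90). These pairs were picked as the largest in absolute r among all pairs of members. The other pairs ran from Tac2 and Chrnb3 at −0.63 to Tac1 and Chrnb3 at −0.0048 in absolute size. E17.5 wild type replicate 1 had the largest deviation of the 16 samples in Nr4a2 (−0.66), Tac1 (−0.70) and Chrnb4 (0.58). The r of these pairs without that sample was not computed. Among 14093 genes with a mean count of at least 50, those most like Pou4f1 by this measure included Pmfbp1 (0.917), Rbfox1 (0.896), Ebf2 (0.879) and Fmn2 (0.874). The 5 most like the sum of Chrna3, Chrna5 and Chrnb4 were Synpo2 (0.876), Wasf3 (0.839), Cap2 (0.821), Nefm (0.805) and Ehhadh (0.793). All these values are descriptions without a test, and the points share their dissection, library and depth within each sample.

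The chromatin marks at the gene starts divided the 9 genes. H3K4me3 marks active and poised promoters, H3K27ac marks active promoters and enhancers, and H3K27me3 is laid down by Polycomb repressive complex 2 over silenced developmental genes. A peak of H3K4me3 within 2 kb of the gene start was present in all 4 E11.5 and all 6 E17.5 lists for Pou4f1, Nr4a2, Tac1, Chrna3, Chrna5 and Chrnb4, and in none of the 10 lists for Gpr151, Tac2 and Chrnb3. Across 20931 protein-coding genes, 61.4% had such a peak in every E11.5 list and 61.5% in every E17.5 list. The 3 genes without H3K4me3 were those with the lowest levels at E11.5, and at E17.5, when all 3 were counted in every RNA sample, they still had no peak.

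The sequence upstream of the canonical transcript start is shown for genes that had H3K4me3 in every list and for one that had it in none, because CpG-rich promoters commonly carry this mark. Capitals mark CpG dinucleotides, the sequences run 5′ to 3′ on the gene's strand in GRCm39, and bases that any annotated exon covers are left out.
Pou4f1, chr14:104705505-104705754, minus strand: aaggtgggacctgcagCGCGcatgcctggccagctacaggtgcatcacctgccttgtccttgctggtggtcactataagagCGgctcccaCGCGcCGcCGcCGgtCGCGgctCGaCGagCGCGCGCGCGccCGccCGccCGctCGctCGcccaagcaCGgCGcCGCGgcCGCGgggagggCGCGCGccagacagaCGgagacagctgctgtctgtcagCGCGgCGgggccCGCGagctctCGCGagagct
Chrna3, chr9:54933942-54934064, minus strand: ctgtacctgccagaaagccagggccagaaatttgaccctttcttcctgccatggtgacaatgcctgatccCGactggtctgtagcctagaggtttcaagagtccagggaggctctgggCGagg
Chrna5, chr9:54888567-54888693, plus strand: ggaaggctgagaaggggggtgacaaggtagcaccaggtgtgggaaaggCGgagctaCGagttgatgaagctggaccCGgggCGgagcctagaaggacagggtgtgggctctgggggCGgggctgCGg
Tac1, chr6:7553870-7554119, plus strand: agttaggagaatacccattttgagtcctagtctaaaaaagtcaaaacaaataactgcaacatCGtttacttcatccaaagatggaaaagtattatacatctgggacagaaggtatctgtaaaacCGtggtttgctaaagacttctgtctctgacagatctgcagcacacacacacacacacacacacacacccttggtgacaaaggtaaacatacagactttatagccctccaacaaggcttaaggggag
Chrnb4, chr9:54956077-54956326, minus strand: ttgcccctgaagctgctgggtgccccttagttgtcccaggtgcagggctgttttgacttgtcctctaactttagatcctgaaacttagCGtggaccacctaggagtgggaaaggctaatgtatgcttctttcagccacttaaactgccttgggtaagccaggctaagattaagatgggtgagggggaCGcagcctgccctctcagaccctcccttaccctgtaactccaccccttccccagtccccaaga
Chrnb3, chr8:27858489-27858738, plus strand: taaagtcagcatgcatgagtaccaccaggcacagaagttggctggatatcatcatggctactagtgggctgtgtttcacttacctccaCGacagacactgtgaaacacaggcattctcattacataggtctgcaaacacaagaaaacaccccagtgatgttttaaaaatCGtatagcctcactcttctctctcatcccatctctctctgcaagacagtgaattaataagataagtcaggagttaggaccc
In the full 250 bases before the start, Pou4f1 held 39 CpG, more than 99.2% of 21751 promoters. Chrna5 held 22 and Chrna3 held 15, of which 6 and 2 lie in the exon-free stretches printed, and Nr4a2 held 14. Tac1, Chrnb3, Chrnb4 and Gpr151 held 2 each and Tac2 held 3. Promoters with H3K4me3 in all 10 lists had a median of 13 CpG (quartiles 8 and 19, 13184 genes) and those with it in none had a median of 2 (quartiles 1 and 4, 7022 genes). Tac1 and Chrnb4 thus carried the mark at a CpG number typical of promoters without it. At Tac1 the H3K4me3 summit lay 1023 to 1185 bp downstream of the start, near the annotated alternative starts at 1025, 1031 and 1066 bp, and at Chrnb4 it lay 212 to 294 bp downstream of its only annotated start. The motif GGGCGG, searched on both strands, was found 2 times at Pou4f1, 4 times at Chrna5 and 1 time at Chrna3, while 36.3% of promoters held it, and TATAAA on the gene's strand was found in none of the 9 windows, while 8.03% of promoters held it.

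H3K4me3 fold enrichment over local background, as the peak caller gave it, rose at 2 of the 6 members tested. At Tac1 it was 14.9 and 9.08 in wild type and 12.6 and 17.0 in humanized lists at E11.5, and 30.96, 22.7 and 31.4 in wild type and 33.0, 25.2 and 27.3 in humanized lists at E17.5. At Chrna3 it was 23.8 and 19.4 in wild type and 16.9 and 24.3 in humanized lists at E11.5, and 47.9, 37.2 and 36.8 in wild type and 51.9, 44.8 and 33.4 in humanized lists at E17.5. Neither gene's stages overlapped. After centring each list on its median, the log2 difference was 0.91 ± 0.18 at Tac1 (limma adjusted p = 0.00252) and 0.79 ± 0.16 at Chrna3 (limma adjusted p = 0.00286), against a background of 10.5% of 12659 genes higher and 5.02% lower, and of 2396 higher and 351 lower without centring in place of 1323 and 635. Both genes also rose in RNA. The other 4 did not pass, at 0.05 ± 0.19 for Pou4f1, −0.09 ± 0.15 for Nr4a2, −0.07 ± 0.19 for Chrna5 and −0.27 ± 0.13 for Chrnb4 (limma adjusted p = 0.915, 0.760, 0.866 and 0.209). Without centring Nr4a2 and Chrna5 were at 0.11 and 0.13, the other direction. Chrna5, whose RNA fell, had a mean fold enrichment of 25.8 ± 1.11 (SD, n = 4) at E11.5 and 29.3 ± 7.92 (n = 6) at E17.5.

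A peak of H3K27me3 lay within 2 kb of the starts of 5 members in every list, namely Pou4f1, Tac1, Tac2, Chrna3 and Chrna5, against 19.8% of genes in every E11.5 list and 19.7% in every E17.5 list. The peak over Pou4f1 ran for 23163 to 28017 bp and covered the whole window of 2 kb on each side in every list. Gpr151 and Chrnb3 had no peak in any list. The start of Chrnb4 had one in 2 of the 4 E11.5 lists and in 6 of 6 E17.5 lists, with mean fold enrichments of 2.53 and 4.60. Pou4f1, Tac1, Chrna3 and Chrna5 therefore had H3K4me3 and H3K27me3 within 2 kb of the same start, which in whole tissue may lie on the same or on different cells' chromatin and cannot be told apart here.

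Among the 5 members tested, fold enrichment of H3K27me3 fell at Chrna3. It was 10.6 and 8.98 in wild type and 11.7 and 14.3 in humanized lists at E11.5, and 6.18, 4.72 and 5.11 in wild type and 5.68, 4.39 and 3.82 in humanized lists at E17.5, so that the stages did not overlap. The centred log2 difference was −0.90 ± 0.10 (limma adjusted p = 1.02e-06), against 34.5% of 3368 genes higher and 43.0% lower, or 525 higher and 1898 lower without centring in place of 1161 and 1449. At Tac2 the difference was 0.61 ± 0.08 (limma adjusted p = 4.51e-06), and the call held in all 12 alternatives. The strongest peak there was not the same one in all lists, so this value compares unlike peaks. It was a peak of 248 or 402 bp at or past the start in the 2 wild type E11.5 lists and one of 2360 to 3270 bp upstream of it in the other lists. Around the canonical start of Tac2 the means were 2.98 ± 0.172 and 3.08 ± 0.222. The Tac2 difference was 0.32 to 0.33 around that start with centring and at the outer start without it. At the neighbouring Chrna5 the difference was 0.16 (limma adjusted p = 0.0519), with means of 7.42 ± 1.25 and 6.76 ± 0.833, and Tac1 (0.05) and Pou4f1 (−0.06) did not pass. Without centring the median of all tested genes was −0.35, against −0.06 with it, and Chrna5 and Tac1 turned to −0.13 and −0.24 while Pou4f1 fell by 0.35 (limma adjusted p = 0.00842).

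The annotated start of Nr4a2 lies 8085 bp upstream of the start of its canonical transcript, and the marks differed between the 2 positions. At the outer start H3K27ac was 20.5 and 30.0 in wild type and 21.5 and 34.3 in humanized lists at E11.5, and 14.1, 14.1 and 12.5 in wild type and 16.3, 15.7 and 12.2 in humanized lists at E17.5. The centred log2 difference there was −1.76 ± 0.21 (limma adjusted p = 1.16e-07), against 17.0% of 9097 genes higher and 24.6% lower, or 5865 higher and 260 lower without centring in place of 1544 and 2242. Without centring the difference at Nr4a2 was −0.88 (limma adjusted p = 0.00168), and the median of all tested genes was 0.78, against −0.10 with it. Around the canonical start the strongest peak was 7.39 ± 1.80 (SD, n = 4) at E11.5 and 10.4 ± 2.27 (n = 6) at E17.5, a higher mean at the later stage, while the centred log2 difference was −0.37, the other direction, and did not pass (limma adjusted p = 0.158). These peaks did not all share a common stretch. H3K27me3 at the outer start was listed in 1 of the 4 E11.5 lists and in 6 of 6 E17.5 lists (Fisher's exact test, p = 0.0333 before adjustment), while at the canonical start it was listed in all 10, at 17.3 ± 2.33 and 11.47 ± 1.43.

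H3K27ac was sparse at the other members. Gpr151 had no peak in the 4 lists at E11.5 and one in all 6 at E17.5, at fold enrichments of 5.83, 5.85 and 6.07 in wild type and 4.10, 4.04 and 4.43 in humanized lists. Its Fisher's exact p was 0.00476, the smallest that 4 against 6 lists allow, and 0.0585 after adjustment. Gpr151 thus had RNA and listed H3K27ac at E17.5 without a listed H3K4me3 peak, and Chrnb3, with a rise in RNA of similar size, had no peak of any of the 4 targets within 2 kb. Chrna3 had H3K27ac in 3 of 4 lists and then 6 of 6, at means of 4.14 and 7.16, Pou4f1 in 3 and then 5, Tac1 in 0 and then 1, Chrnb4 in 1 and then 0, and Chrna5 in none. Tac2 had it in 2 and then 6 lists at the outer start, with summits at −2954 to −2002 bp from that start, and in 0 and then 1 at the canonical start. Across genes, 45.0% had an H3K27ac peak in every E11.5 list and 52.7% in every E17.5 list. The H3K27ac lists were longer at the later stage, with 32418 to 37311 peaks each at E11.5 and 47132 to 77419 at E17.5.

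By presence in the lists, Fisher's exact test called 0 members and 0 of all genes tested between the stages for H3K4me3, H3K27ac and H3K27me3 (0.0% in each direction), with 293, 1714 and 1067 genes at an unadjusted p under 0.05. With 4 against 6 lists the smallest Fisher's exact p is 0.00476, which for H3K27ac stood at 0.0585 after adjustment. A call therefore needs many genes at that smallest p, and these 0 calls do not show that presence was unchanged. At a stricter −log10 q of at least 5, 621 genes were called for H3K27me3, and Chrnb4 was among them, with a peak in 0 of 4 E11.5 and 6 of 6 E17.5 lists (Fisher's exact test, adjusted p = 0.0340). Between genotypes limma called 0 members and 0 genes for each of the 3 marks (0.0%), with 608, 455 and 184 genes at an unadjusted p under 0.05 for H3K4me3, H3K27ac and H3K27me3.

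**Figure D4:**
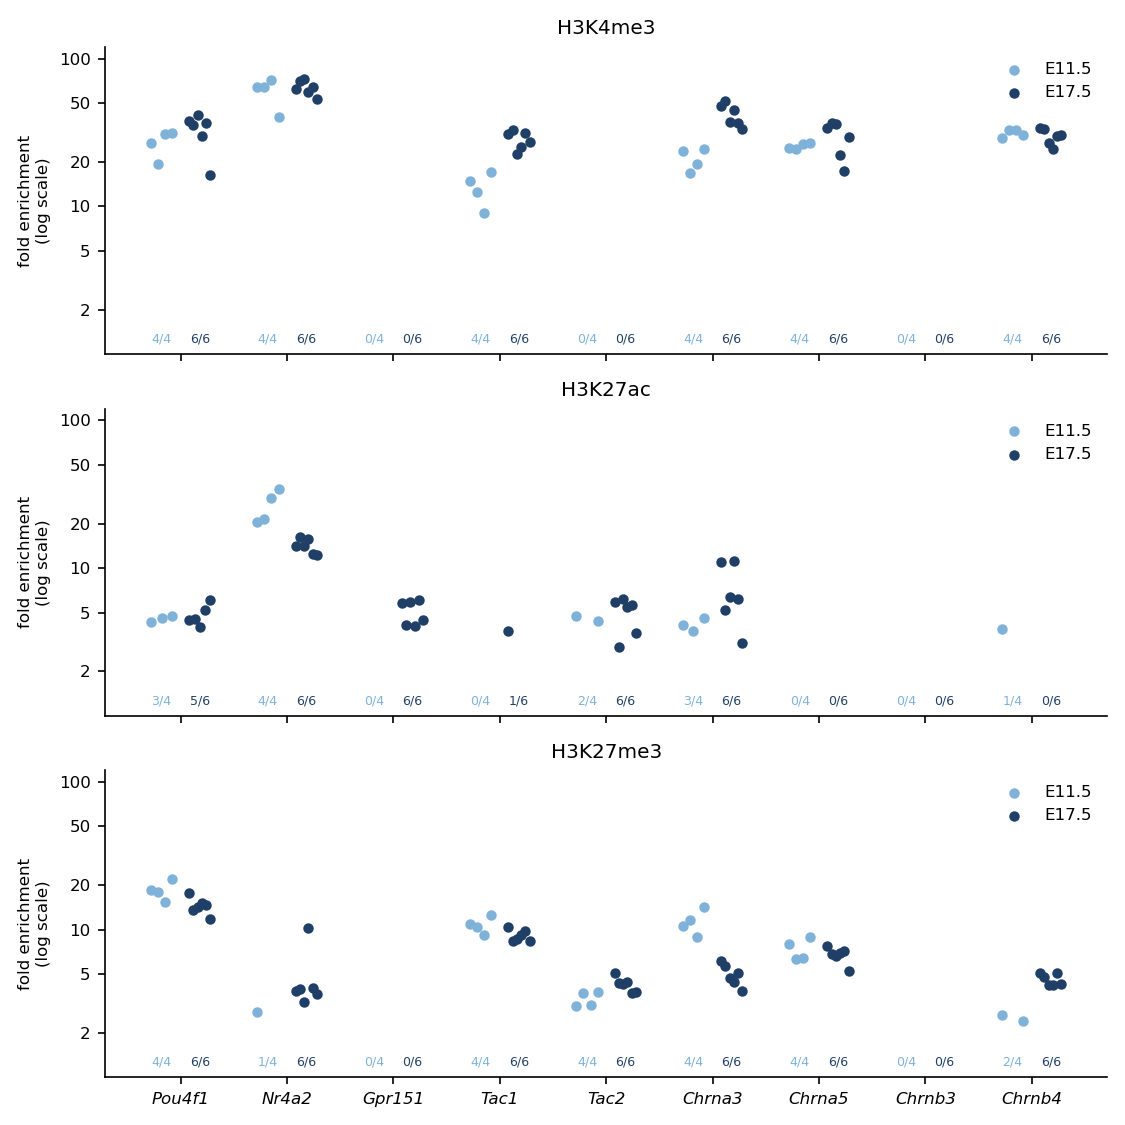
Fold enrichment over local background of the strongest peak within 2 kb of each gene's outermost annotated start, on a log axis, for H3K4me3, H3K27ac and H3K27me3. Each point is a peak list with such a peak, wild type and humanized together, and the numbers above the axis give lists with a peak of all lists at E11.5 (light) and E17.5 (dark). No H3K4me3 point is seen at Gpr151, Tac2 and Chrnb3, and at Chrna3 the mean goes from 21.1 to 42.0 for H3K4me3 and from 11.4 to 4.98 for H3K27me3.

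Over the Chrna5-Chrna3-Chrnb4 cluster, chr9:54888164-54956076, and 20 kb on each side, peaks of the lists that overlapped were merged into regions. The 3 H3K4me3 regions lay at the 3 gene starts and were in all 10 lists. An H3K27me3 region of 9267 bp lay over the start of Chrna5, chr9:54883386-54892652, and one of 5023 bp over the start of Chrna3 and the end of Chrnb4, chr9:54930995-54936017, both in all 10 lists. H3K27ac made 7 regions, none of them in every list, and the one most often listed was at the Chrna3 start, in 3 of the 4 E11.5 lists and in 6 of 6 E17.5 lists. A region within Chrnb4, chr9:54938487-54938883, was listed in 3 of the 4 E11.5 lists and in 0 of 6 E17.5 lists (Fisher's exact p = 0.0333, adjusted p = 0.193). By Fisher's exact test no cluster region of any mark was called between stages. In the genome 11.8% of 102240 H3K27ac regions were called in more lists of E17.5 and 1.91% in more lists of E11.5. For H3K4me3 and H3K27me3 it was 0.0% in either direction, so the lack of a call in the cluster carries little information for these marks. An unadjusted p under 0.05 was reached by 1 of 7 H3K27ac and 1 of 7 H3K27me3 regions of the cluster. In the genome 24649 of 102240 H3K27ac and 7064 of 58407 H3K27me3 regions reached it.

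CTCF peaks were listed at 3 sites of the cluster in all 6 lists, against 48.4% of 86103 CTCF regions in the genome. The strongest, in an intron of Chrna3 2428 bp downstream of the canonical start, had fold enrichments of 47.3, 43.5 and 39.2 in wild type and 29.9, 20.2 and 42.1 in humanized lists. A site in an intron of Chrnb4, 1825 bp downstream of its start, had 21.0, 13.5 and 15.2 in wild type and 16.1, 19.2 and 13.6 in humanized lists. The third, chr9:54919834-54920391 towards the end of Chrna3, had 7.66 to 12.3. Wild type and humanized values overlapped at all 3 sites, and with 3 lists against 3 the smallest p that Fisher's exact test allows is 0.1. Around gene starts, CTCF was listed in every list at Chrnb4, in 4 of 6 at Chrna3 and in 0 to 2 at the other outer starts, against 32.7% of genes with a peak in every list. At the canonical start of Nr4a2 it was in all 6, at 14.8 ± 3.31, with the summit at −1636 to −1604 bp from that start.
The 61 bases around the summit of the first wild type replicate are shown for the intronic sites of Chrna3 and Chrnb4, since they differ in the match to the core of the CTCF motif, CCNNNAGNNGGC, which capitals mark.
Chrna3 intron, chr9:54931356-54931416, plus strand: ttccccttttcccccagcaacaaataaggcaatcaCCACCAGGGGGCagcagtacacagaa
Chrnb4 intron, chr9:54954221-54954281, plus strand: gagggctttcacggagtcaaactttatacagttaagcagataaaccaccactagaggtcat
The core was found on the plus strand at the Chrna3 site and on neither strand at the Chrnb4 site, while 25.8% of 75549 summit windows of that list and 7.42% of promoters held it on either strand. A window without a match lacks only these letters.

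**Figure D5:**
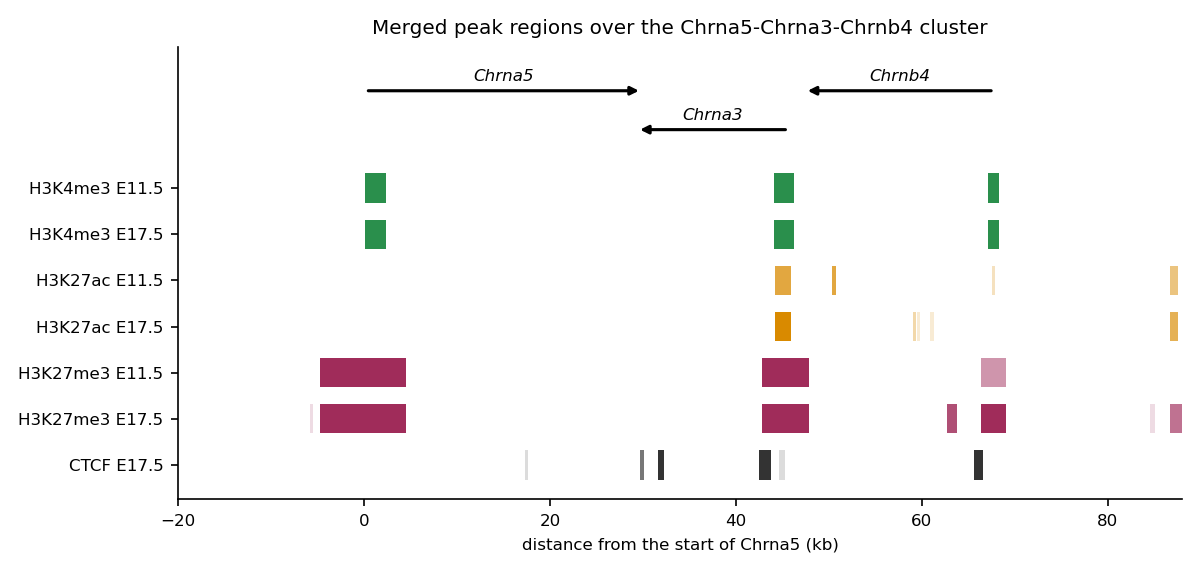
Merged peak regions over the Chrna5-Chrna3-Chrnb4 cluster, by distance in kb from the annotated start of Chrna5. Arrows show the genes and their direction of transcription, and the darker a box, the larger the share of lists of that stage that held a peak in the region. H3K4me3 and H3K27me3 sit at the same 3 gene starts, and the 3 darkest CTCF boxes lie at 31.9, 43.2 and 66.1 kb.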

How the data were processed

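RNA-seq and ChIP-seq files of 52 of the 76 samples were used, whereas the 24 input libraries are not analysed here. STAR 2.7.9a was the aligner the authors used for RNA, on mm39, and they deposited raw read counts per gene in GENCODE M31 basic, without length or depth scaling. The unstranded column was used, and the 4 summary lines that name no gene (48.1% to 58.4% of all reads, unmapped reads included) were left out. For ChIP, the authors mapped reads with Bowtie2 2.4.2, removed duplicates and called peaks per sample with MACS2 2.2.7.1. The deposited peak lists give a fold enrichment over local background, −log10 p-values and q-values, and a score that was not used here. Humanized libraries were mapped to mm39 carrying the human sequence, and chromosome 13, which holds no member, was left out of the peak analyses. Per the methods, the H3K27ac antibody lot also binds H2BK5ac, and the setting for H3K27me3 peaks was not given in the sources used here.

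The members and lists were chosen with earlier results of these data known. Genes were tested with edgeR 4.0.16 (R 4.3.3) by quasi-likelihood with TMM scaling and its default filter on low counts, fitting only the groups compared, with all 4 groups fitted for the interaction. P-values were Benjamini-Hochberg adjusted over all genes tested. Peak presence within 2000 bp of the outermost annotated gene start was tested with two-sided Fisher's exact tests over lists, adjusted over all genes with a peak. After the peak lists had been seen, log2 of the highest fold enrichment within that window was also tested with limma 3.58.1, for genes with a peak in all 10 lists, centred on each list's median, with stage and genotype as terms. Peaks overlapping by at least 1 bp were merged into regions over the cluster. Coordinates, canonical transcripts, lengths and sequences came from GRCm39 with GENCODE vM39, a later release than that used for counting, and 98.8% of the gene IDs matched it.

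All 9 members are named. From each other list up to 4 genes are named, those called with the largest log2 difference between stages in wild type and then those with the highest mean count, and the genes most like a member by correlation are the top 5, of which 1 is not reported here.

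Replicate pairs within a group differed far beyond sampling noise (chi-square per degree of freedom 9.01 to 342 over 24 pairs), so none was counted as a duplicate. Same-numbered samples of the 2 genotypes deviated together at E17.5 (r = 0.604, 0.681, 0.134 and 0.330), so the replicate block was read as a pairing there. At E11.5 r was 0.0589, 0.240, 0.0357 and 0.126 and was not read as a pairing. Between same-numbered samples of the 2 stages r was mixed in sign and was not read as one either. It was 0.03, −0.66, 0.51 and 0.13 in wild type and 0.47, −0.32, 0.06 and 0.15 in humanized samples. Replicates come from separate litters per the methods, so p-values measure the spread between pools of embryos. The steps were tested on simulated data. Alternatives were DESeq2 1.42.0, its size factors, all genes without a filter, the gene-strand column, the replicate block, a fit of all 16 samples, leaving out each replicate, a −log10 q of at least 5, equally many peaks per list, other windows, starts and overlaps, wild type lists alone, and, added after seeing the data, no centring and the canonical transcript start. Figures and peak tables were made in Python 3.11.15 with pandas 2.3.3 and scipy 1.17.1.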

Additional observations from a re-analysis of the deposited data

Results flagged for a closer look

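In 3 of the 36 sets of 4 RNA samples (9 genes in 4 groups), 1 sample lay far from the other samples of its group by Dixon's test, and chance gives about 1 such set in 20. Nr4a2 was 39.9 CPM in E17.5 wild type replicate 1, with the others at 71.3 to 76.3 CPM. Chrnb3 was 4.85 CPM in E17.5 wild type replicate 4, with the others at 3.08 to 3.21 CPM. Tac2 was 0.0410 CPM, a single read, in E11.5 humanized replicate 4, and 0 in the others. No cause was tested.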

How the results depend on the processing

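Between stages 6 to 7 members were called in wild type and 6 to 8 in humanized samples over all alternatives, and 0 in every alternative between genotypes and for the interaction. Of the alternative values, 638 were labelled the same as the main result, 14 reversed, 6 stronger and 3 weaker. For a log2 difference, the same means that direction and side of the threshold were kept. Counts of called members were also labelled the same after small moves, as from 6 to 7 in wild type. The 638 include Fisher's tests at gene starts on wild type lists alone. There no gene had an unadjusted p under the threshold for any mark, so that agreement carries no information. The other Fisher's tests at gene starts with 0 genes called are limited by the smallest p that so few lists allow. Their agreement adds little. The other changes were as follows. Nr4a2 RNA between stages in wild type was 0.018 with DESeq2 size factors and −0.13 to 0.13 when leaving out 1 replicate, and Chrnb4 was −0.065 to 0.31, both turning only without E17.5 wild type replicate 1 among the replicates. Nr4a2 in humanized samples lost its call without E11.5 humanized replicate 3 (0.37, edgeR adjusted p = 0.0555). For H3K4me3, Nr4a2 was 0.11 without centring, 0.056 at the canonical start and −0.25 to 0.012 when leaving out 1 list, Chrna5 was 0.13 without centring and −0.13 to 0.079, and Pou4f1 was −0.046 to 0.22. For H3K27me3 without centring, Tac1 was −0.24, Chrna5 −0.13 and Pou4f1 −0.35, the last called. Chrna5 H3K27me3 was also called without E11.5 humanized replicate 2 (0.19) and without E17.5 humanized replicate 3 (0.20). By presence of H3K27me3, 1 member, Chrnb4, was called with a −log10 q of at least 5 (621 genes in all, in place of 0) and also when every list gave equally many peaks (663 genes). The 1 cluster region called with a −log10 q of at least 5 was at the Chrnb4 start. For H3K27ac at Nr4a2 the difference was −0.88 without centring, and 0 members were called at the canonical start, where Nr4a2 was −0.37. Gpr151 RNA between stages was 6.54 in wild type and 6.25 in humanized samples with gene-strand reads alone, in place of 4.96 and 4.85. The causes were not tested.

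With the replicate block, which pairs the genotypes at E17.5, 6 members were called between stages in wild type, 7 in humanized samples and 0 between genotypes at either stage, so it changed no member's call. Across all genes, counts of calls differed by over 1.5 times for the genotype comparisons, with 2 genes by DESeq2 and 1 by the 16-sample fit at E11.5 and 1 by DESeq2 at E17.5 in place of 0, and for H3K27ac without centring, with 6125 genes in place of 3786. H3K27me3 between genotypes had 2 genes called without centring and 1 without E11.5 humanized replicate 2, in place of 0. DESeq2 and no filter moved the median stage difference of all genes to 0.26 and 0.20 in wild type and 0.38 and 0.25 in humanized samples. The depth limits Tac2, Gpr151 and Chrnb3, which had 0 to 6 reads per sample at E11.5, and the fold enrichment test covers only genes with a peak in every list.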
